A study of Rattus norvegicus with 6 samples.

Results

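The genes described here are p53 targets and apoptosis genes: 37 genes listed by symbol, of which 36 had a probe on the array among 19956 genes with a symbol. A gene was taken when a probe carried its symbol, and where several probes did, the brightest over the 6 arrays stood for the gene. Ddb2, a damage-recognition protein of nucleotide excision repair, had no probe under that symbol and was not analysed here. The 36 genes were read by 48 of the 30367 gene probes.

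RNA came from FAO cells, a rat liver cell line derived from a hepatoma, and from liver and kidney of Wistar rats, which parts of the labels call mice. FAO cells were cultured for 24 h with 100 µM deferoxamine, an iron chelator, or with the solution alone and no deferoxamine. Rats were fed the purified AIN-93G diet complete or without iron for 4 weeks. RNA of 3 cultures, or of 6 animals per tissue and diet, was pooled onto 1 one-colour array per group, and all 6 arrays lay on 1 slide. A group of 1 array has no replicates, so no test was possible and genes are singled out only by the size of the difference between treated and control, 2-fold or more in either direction. Signals are linear and scaled between arrays, and differences are on the log2 scale. The ± is a standard error from the spread of repeated spots, pooled over probes of similar signal on each array. It covers spot noise and not animals or cultures, and does not show how far a gene's own spots lie apart. FAO is a single line, and each array averages its animals or cultures.

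The protein p53 is a transcription factor that is kept low by the ubiquitin ligase Mdm2, itself a p53 target, and that accumulates when DNA is damaged or replication fails. Its targets halt the cell cycle, repair DNA, or start apoptosis through death receptors or through BCL2 proteins at the mitochondrion, where BH3-only proteins free Bax and Bak1 to open the outer membrane and Apaf1 and caspase-9 then carry the signal on. Many of these genes also respond to other stress pathways and to growth factor signalling, and hepatocytes are known to use both the receptor and the mitochondrial route of apoptosis.

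Promoter windows were taken for 29 of the 36 genes from RefSeq (assembly GRCr8), each running from 250 bases before to 50 bases after the annotated start. Those of 4 genes are shown without the bases after the start, since they are the genes around which the results turn: Btg2 was higher in all 3 comparisons, Ccng1 in FAO cells and liver, Aen in FAO cells by both of its probes, and Cdkn1a gave different values by its probes. Capitals mark a cAMP response element (TGACGTCA) in Btg2 and a p53 half-site in the others. The windows lie at chr13:48087691-48087940 for Btg2 and chr10:25684877-25685126 for Ccng1, both on the minus strand, and at chr1:142224283-142224532 for Aen and chr20:7150682-7150931 for Cdkn1a, both on the plus strand. They are written 5′ to 3′ along the gene.
Btg2: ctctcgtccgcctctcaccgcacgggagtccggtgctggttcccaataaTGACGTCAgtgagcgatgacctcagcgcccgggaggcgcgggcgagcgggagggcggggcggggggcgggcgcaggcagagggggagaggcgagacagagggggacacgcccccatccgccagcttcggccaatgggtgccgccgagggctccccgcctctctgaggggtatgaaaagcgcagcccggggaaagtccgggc
Ccng1: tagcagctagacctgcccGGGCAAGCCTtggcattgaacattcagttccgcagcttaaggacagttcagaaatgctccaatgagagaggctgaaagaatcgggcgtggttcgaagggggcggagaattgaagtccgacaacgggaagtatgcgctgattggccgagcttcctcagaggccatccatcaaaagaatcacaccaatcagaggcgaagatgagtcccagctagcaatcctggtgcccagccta
Aen: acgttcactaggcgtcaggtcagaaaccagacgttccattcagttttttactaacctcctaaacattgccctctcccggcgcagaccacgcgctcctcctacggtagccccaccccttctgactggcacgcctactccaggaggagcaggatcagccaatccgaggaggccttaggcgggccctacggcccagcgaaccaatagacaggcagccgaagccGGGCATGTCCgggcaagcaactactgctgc
Cdkn1a: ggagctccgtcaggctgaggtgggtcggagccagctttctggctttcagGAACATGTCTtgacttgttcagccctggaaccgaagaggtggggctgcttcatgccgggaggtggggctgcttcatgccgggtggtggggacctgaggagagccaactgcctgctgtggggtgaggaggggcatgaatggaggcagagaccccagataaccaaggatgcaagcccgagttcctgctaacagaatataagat

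The Btg2 element began 201 bases before the start, and the half-sites began 232 bases before it in Ccng1, 30 in Aen and 201 in Cdkn1a. None of these capitals overlapped a match to another motif searched. With both strands read, a p53 half-site stood in the windows of 6 of 29 genes (20.7%: Aen, Ccng1, Cdkn1a, Ei24, Gadd45a and Sesn1) and in 7.89% of 27457 windows of all genes. A pair of half-sites 0 to 13 bases apart, the form p53 is known to bind best, was in none of the 29 windows and in 0.0619% of all. The cAMP response element was in the windows of Btg2 and Plk2 (6.90%) and in 1.91% of all. An AP-1 site (TGAGTCA or TGACTCA) was in that of Perp (3.45%), against 4.53% of all. The core of the hypoxia response element (ACGTG or GCGTG) was in 17 of the 29 (58.6%), against 42.9% of all, and the CArG box of serum response factor was in none, against 1.64%. These are matches of letters and describe the windows only.

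The share of probes well above background ran from 37.7% to 48.8% over the 6 arrays, and no gene spot was saturated. Of the 36 genes, 23 and 26 were well above background in iron-sufficient and iron-free liver, 21 and 22 in the matching kidneys, and 29 and 33 in untreated and deferoxamine FAO cells. The tissue labels fitted their markers. Albumin (Alb) read 86391 in control liver and was not well above background in kidney (29.2), and uromodulin (Umod), made by kidney tubules, had 200247 in control kidney and 12.7 in liver. Transferrin receptor (Tfrc), which takes up iron, was 2.87-fold higher in FAO cells, 13.1-fold in liver and 7.97-fold in kidney, and the iron hormone hepcidin (Hamp) was 829-fold lower in liver. Repeated spots disagreed over 31 of 264 blocks of the control liver array and 12 of the deferoxamine array, and over 0 to 4 of the others. Such blocks held a spot of Mdm2, Gadd45a, Plk2, Plk3, Sesn1, Tnfrsf10b, Bbc3, Bak1, Perp and Mcl1 on the control liver array, of Gadd45a, Apaf1, Bik and Perp on the deferoxamine array, and of Gadd45a on the control kidney array.

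With deferoxamine, some of these genes were higher in FAO cells, among them the growth-arrest gene Btg2 (7.05-fold), the p53 inhibitor Mdm2 (2.68-fold) and the BH3-only gene Bbc3 (2.81-fold), while others such as Bax, Bak1, Casp9 and Gadd45a stayed within 2-fold. Of the 29 genes well above background on both arrays, 10 were higher by 2-fold or more and 0 lower, where 2.96% of all 9724 such genes were higher and 3.91% lower. Their median difference was 0.52 (quartiles 0.06 and 1.25), beside 0.03 for all genes. The list was chosen with earlier results of these data known, so its contrast with all genes is a description only. With 3 genes added that were above background on 1 array alone, and so could only give a bound, 12 of 32 were higher and 0 lower, beside 4.05% and 6.43% of 10694 genes. Under normexp, another background correction, Zmat3 (0.95), Phlda3 (0.84), Fas (0.99), Bcl2l11 (0.89) and Mcl1 were no longer past 2-fold. The others of the 37 had no value in FAO cells: Bcl2, Perp, Pmaip1 and Bik gave no difference and Ddb2 had no probe.

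**Figure D1:**
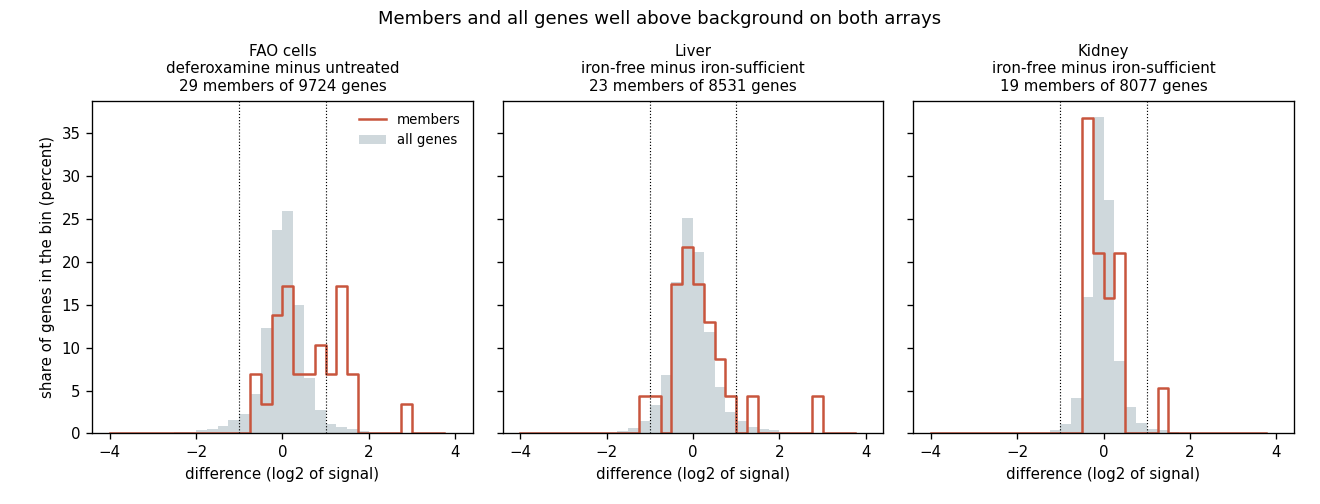
Share of genes in percent (y axis) by treated minus control log2 difference (x axis), for the p53 target and apoptosis genes (line) and all genes (filled) well above background on both arrays, in FAO cells, liver and kidney. In FAO cells the line lies to the right of the filled area, with medians of 0.52 and 0.03, and in liver (0.00 and -0.06) and kidney (-0.17 and -0.05) the medians lie near each other.

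Among the genes of p53 feedback and growth arrest, 4 of 10 were at least 2-fold higher in FAO cells (Btg2, Plk3, Mdm2 and Ccng1), beside 4.05% of all genes. All 10 had a difference above 0, as had 5666 of all 10694 genes with a value. For Plk2 that sign was set by the rule, since a bound of its kind is kept only above 0, and Gadd45a lay within its spot error. Btg2 (gene ID 29619), an antiproliferative protein that recruits the CCR4-NOT deadenylase to mRNA, had a signal of 699 in untreated and 4926 in deferoxamine cells, 289 and 2102 in liver on the iron-sufficient and iron-free diets, and 531 and 1413 in kidney. The treated array was the brighter one in each of the 3 pairs, and no spot of a treated array lay below a spot of its control. The difference in FAO cells was 2.82 ± 0.18 (7.05-fold), which ranked 47 of 10694 genes from the highest.

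Mdm2 (gene ID 314856), the ligase that holds p53 down, had signals of 428 and 1146 in untreated and deferoxamine FAO cells, 124 and 226 in iron-sufficient and iron-free liver, and 504 and 388 in kidney. It was 2.68-fold higher with deferoxamine (1.42 ± 0.29), and its second probe, dimmer at 67.8 and 188, gave 1.47. In liver the control spots were 57.0, in a noisy block and not well above background, and 268, so that the liver value is a bound of 0.87 that rests on the dim spot. Without spots in noisy blocks it turned to -0.23, so no direction is given for liver. Kidney gave -0.38 ± 0.27.

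Ccng1 (gene ID 25405), cyclin G1, which guides phosphatase 2A to Mdm2, had signals of 159 and 415 in FAO cells, 204 and 543 in liver and 785 and 921 in kidney, control first. FAO cells and liver gave nearly the same size of difference, 1.38 ± 0.43 (2.60-fold) and 1.41 ± 0.31 (2.66-fold), and kidney 0.23 ± 0.28. In liver its repeated spots lay far apart, at 304 and 138 on the control and 847 and 348 on the iron-free array. The dimmer treated spot thus stood only a little above the brighter control spot, which lies at another position. At the same position on both arrays the signals were 304 and 847, and 138 and 348. Plk3 (gene ID 58936), a stress-responsive polo-like kinase, had 58.2 and 172 in FAO cells. That is 2.95-fold (1.56 ± 0.57). In the tissues Plk3 read 122 and 81.5 in liver and 112 and 57.2 in kidney, well above background only in iron-free liver, and gave no value there.

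Cdkn1a (gene ID 114851), the p21 inhibitor of cyclin-dependent kinases and the best known growth-arrest target of p53, gave 2 readings. Its brighter probe had signals of 4756 and 5784 in FAO cells, 26609 and 34269 in liver and 20669 and 20407 in kidney, with differences of 0.28 ± 0.16, 0.37 ± 0.27 and -0.02 ± 0.20. Its other probe, a single spot per array outside the noisy blocks, had 1822 and 9045 in FAO cells, a 4.96-fold difference (2.31), and 0.40 in liver and 0.18 in kidney. The probes thus lay close in both tissues and apart in FAO cells, and which of them follows the gene's RNA was not tested. With the probes of each gene averaged, Cdkn1a joined the genes past 2-fold and their number in FAO cells became 13.

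The rest of this group stayed within 2-fold in FAO cells. Btg1, a relative of Btg2, was at 0.92 ± 0.15, and the growth-arrest and DNA-damage genes Gadd45b and Gadd45g were at 0.72 ± 0.20 and 0.76 ± 0.27. Gadd45a, the member of that family most tied to p53, was at 0.06 ± 0.52, with signals of 250 and 260, and 1 of its spots on the treated array lay in a noisy block. Plk2, a second stress-responsive polo-like kinase, was above background with deferoxamine alone and gave a bound of 0.12.

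**Figure D2:**
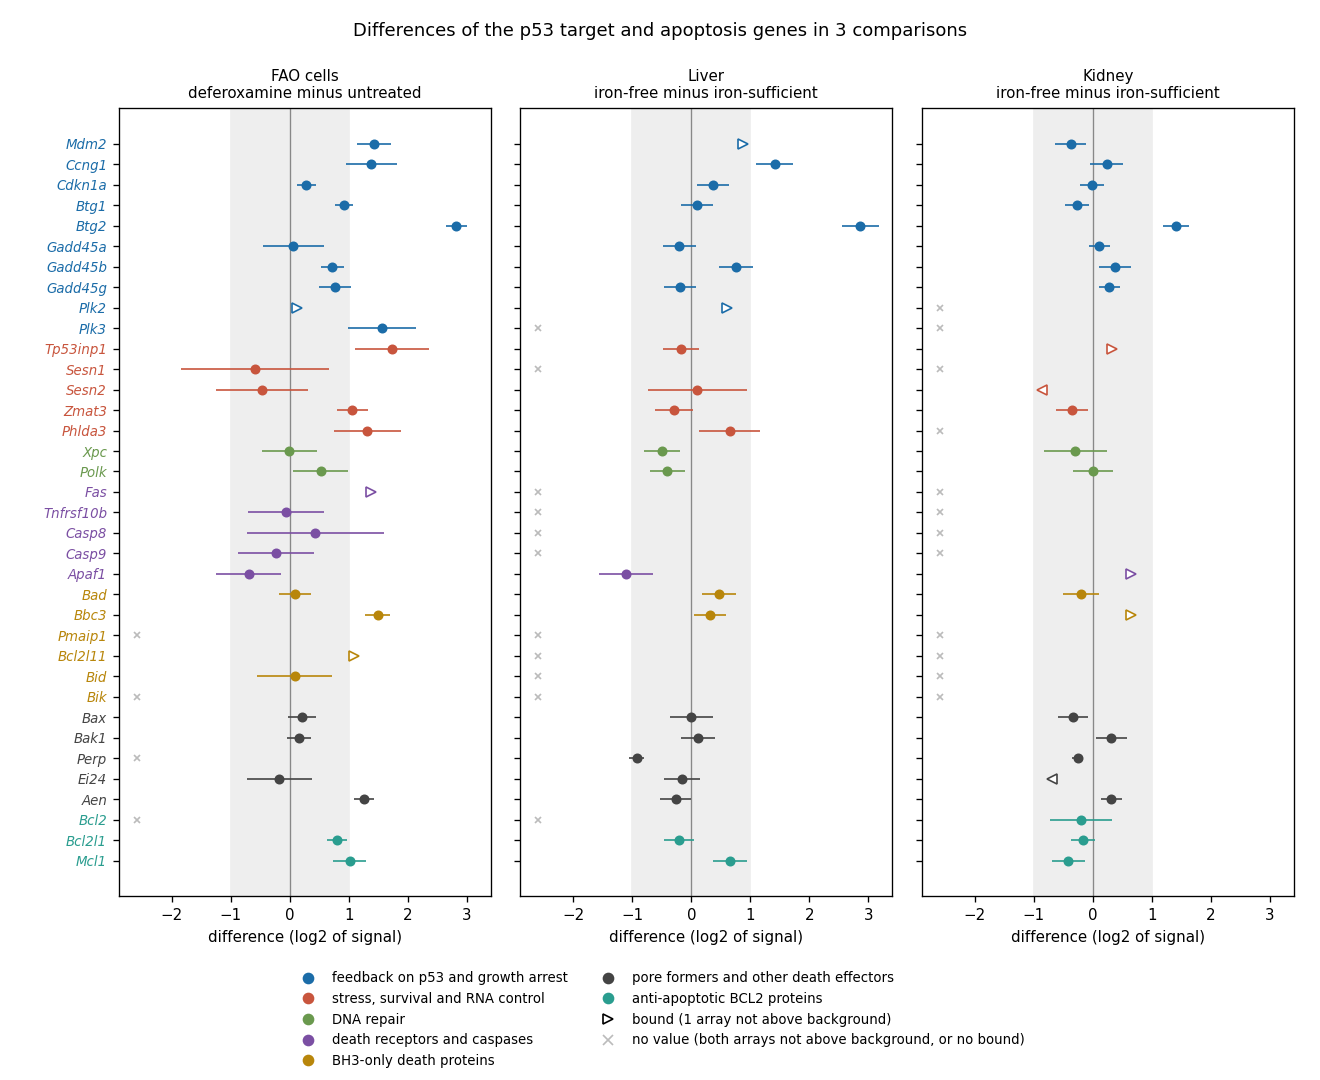
Treated minus control log2 difference (x axis) of each of the 36 genes (rows, coloured by role) in FAO cells, liver and kidney; points are measured values with the spot standard error, triangles are bounds pointing away from 0, crosses mark genes without a value, and the grey band is within 2-fold. Btg2 lies right of the band in all 3 panels (2.82, 2.86 and 1.41), Ccng1 in the first 2, and Apaf1 left of it in liver (-1.11).

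Of the 5 genes of stress, survival and RNA control, 3 were at least 2-fold higher in FAO cells and 2 had differences below 0. Tp53inp1 (gene ID 297822), which acts in p53 phosphorylation and autophagy, had signals of 62.4 and 206 in FAO cells, 312 and 276 in liver and 159 and 199 in kidney. It was 3.31-fold higher in FAO cells (1.73 ± 0.63), where untreated cells were the dimmest of the 6 arrays. Liver gave -0.18 ± 0.30.

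Phlda3 (gene ID 363989), a repressor of Akt, had signals of 58.1 and 144 in FAO cells and 85.1 and 133 in liver, and 24.5 and 20.1 in kidney, where it was not well above background. The FAO difference was 1.31 ± 0.57 (2.48-fold) and the liver difference 0.65 ± 0.52. Zmat3 (gene ID 64394), an RNA-binding protein that controls splicing and mRNA stability, had 280 and 582 in FAO cells, 302 and 245 in liver, and 510 and 401 in kidney. Its FAO difference of 1.06 ± 0.27 (2.08-fold) stood just past 2-fold, and the tissues gave -0.30 ± 0.32 and -0.35 ± 0.27. The sestrins, which restrain the growth kinase mTORC1, lay on the other side of 0 in FAO cells, Sesn1 at -0.59 ± 1.26 and Sesn2 at -0.48 ± 0.78, both within their spot error and each read by 1 spot.

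The DNA repair genes did not reach 2-fold in any comparison. Xpc, which recognises damage for excision repair, had differences of -0.01 ± 0.47, -0.50 ± 0.30 and -0.30 ± 0.53 in FAO cells, liver and kidney. Polk, a polymerase that bypasses lesions, had 0.52 ± 0.47, -0.41 ± 0.30 and 0.00 ± 0.34.

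Of the 5 genes of death receptors and caspases, 1 was at least 2-fold higher in FAO cells. Fas (gene ID 246097), the receptor of Fas ligand, was well above background on the deferoxamine array alone, at 55.6 against 6.66 in untreated cells, and its bound was 1.38 (at least 2.61-fold), read by 1 spot. Its other probe, read by repeated spots, had 4.69 in untreated and 5.21 in deferoxamine cells, neither well above background, and gave no value. By the first probe the tissues gave 25.3 and 25.6 in liver and 22.7 and 18.9 in kidney, none of them well above background. Tnfrsf10b, the TRAIL receptor, was at -0.07 ± 0.64 in FAO cells, and the initiator caspases Casp8 and Casp9 at 0.43 ± 1.16 and -0.24 ± 0.64; none of these was well above background in a tissue.

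Apaf1 (gene ID 78963), the scaffold of the apoptosome, had log2 levels of 7.28 and 6.58 in FAO cells, 7.74 and 6.63 in liver and 6.74 and 7.40 in kidney, the iron-sufficient kidney not well above background. It was the only one of the genes at least 2-fold lower in any of the 3 comparisons, in liver at -1.11 ± 0.46 (2.15-fold). FAO cells gave -0.70 ± 0.55, where 1 treated spot lay in a noisy block and the value without it was -0.18, and kidney a bound of 0.65. Its other probe went the opposite way, at 0.31 in liver and 0.24 in FAO cells, and with both averaged the liver value was -0.40.

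The BH3-only genes differed in how well they could be read. Bbc3 (gene ID 317673), which encodes Puma, a direct p53 target, had signals of 588 and 1653 in FAO cells, 637 and 794 in liver and 191 and 298 in kidney, where the control was not well above background. It was 2.81-fold higher with deferoxamine (1.49 ± 0.21), with 0.32 ± 0.27 in liver and a bound of 0.64 in kidney. Bcl2l11 (gene ID 64547), which encodes Bim, had 15.9 and 45.2 in FAO cells, the first not well above background, for a bound of 1.08 (at least 2.12-fold).

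In the tissues Bcl2l11 had signals of 16.4 and 46.4 in liver and 68.5 and 22.2 in kidney, none of them well above background on all spots. Bad and Bid, which act after dephosphorylation or cleavage, stood at 0.08 ± 0.27 and 0.08 ± 0.64 in FAO cells. Pmaip1, which encodes Noxa, and Bik were not well above background on any array. Noxa is a p53 target in many cells, and its probe read at most 24.0 here.

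Among the pore formers and other death effectors, Aen alone passed 2-fold in FAO cells. Aen (gene ID 361594), a p53-induced nuclease that cuts DNA in dying cells, had signals of 2113 and 5017 in FAO cells, 1935 and 1602 in liver and 1001 and 1241 in kidney. The FAO difference was 1.25 ± 0.17 (2.37-fold), and the dimmer probe gave 1.29 from 166 and 407. Bax (gene ID 24887), a p53 target in many cells, had 3328 and 3821 in FAO cells, 1221 and 1221 in liver, and 2093 and 1652 in kidney. These are differences of 0.20 ± 0.24, 0.00 ± 0.37 and -0.34 ± 0.25, close to or within the spot error, from 1 spot per array. The other probe of Bax, dimmer but with 10 spots per array, gave 0.12, 0.46 and -0.33.

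Bak1, the second pore former, stood at 0.15 ± 0.20 in FAO cells and Ei24, an endoplasmic reticulum protein, at -0.18 ± 0.55. Perp, a desmosomal membrane protein induced by p53, was not well above background in FAO cells, with signals of 5.40 and 4.89. In liver it had 9839 and 5154, a difference of -0.93 ± 0.13 that stood just inside 2-fold, and in kidney 8472 and 7090 (-0.26 ± 0.09).

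Of the 3 anti-apoptotic BCL2 genes, 1 reached 2-fold in FAO cells. Mcl1 (gene ID 60430), a short-lived anti-apoptotic BCL2 protein, had signals of 610 and 1228 in FAO cells, 391 and 614 in liver and 923 and 690 in kidney. It lay at the 2-fold mark in FAO cells (1.01 ± 0.28, 2.01-fold), and short of it at 0.97 without spots in noisy blocks and at 0.78 with normexp. In liver it gave 0.65 ± 0.29, but the control spots were 223, in a noisy block, and 684, and without such spots the difference turned to -0.14. Kidney gave -0.42 ± 0.28.

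Bcl2l1, which encodes Bcl-xL, was at 0.79 ± 0.17 in FAO cells by its brightest probe and 0.18 by another. Bcl2 (gene ID 24224), the founding member of the family, had signals of 32.5 and 30.7 in FAO cells, the first not well above background, and 16.4 and 14.5 in liver, neither above background. Kidney, with 216 and 188, was the only tissue where both arrays read it, and the difference there was -0.20 ± 0.53.

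**Figure D3:**
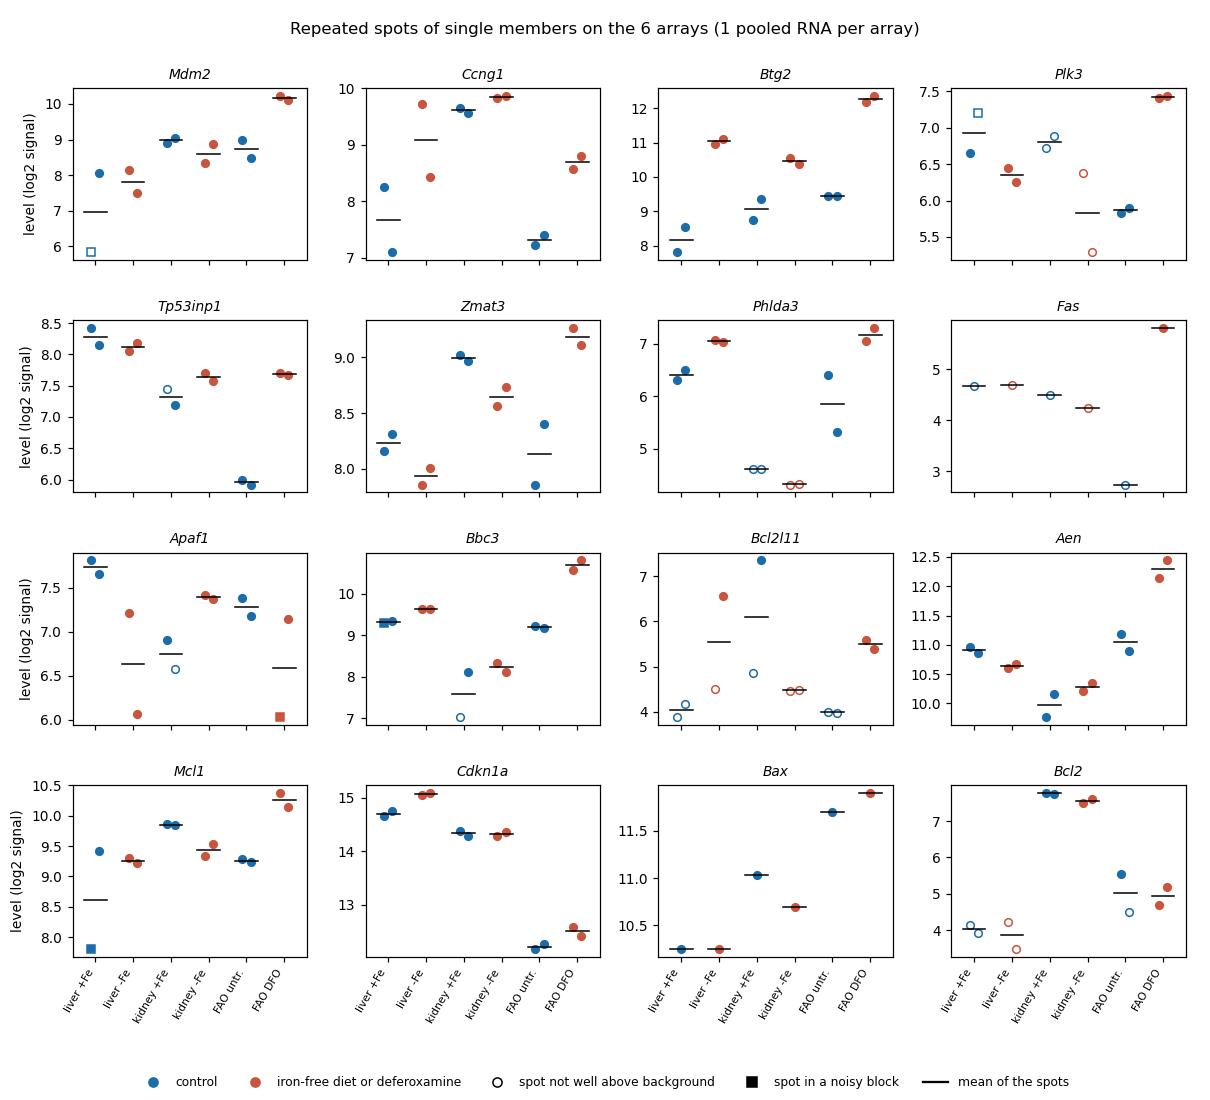
Log2 signal (y axis) of every kept spot of 16 genes on the 6 arrays (x axis); blue is control, red the iron-free diet or deferoxamine, open symbols are not well above background, squares lie in noisy blocks and bars are spot means. Spots of Btg2 separate treated from control in each pair, while the control liver spots of Mdm2 (57.0 and 268 as signals) and Mcl1 disagree with each other.

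In liver the same genes gave few differences of that size. Of the 23 genes well above background on both liver arrays, Btg2 and Ccng1 were at least 2-fold higher and Apaf1 at least 2-fold lower, where 3.32% of 8531 such genes were higher and 2.63% lower. The median was 0.00, beside -0.06 for all genes. Adding 2 bounds, Mdm2 at 0.87 and Plk2 at 0.61, gave 25 genes and no further gene past 2-fold, beside 6.52% higher and 3.01% lower of 10171 genes. Both bounds rest on a dim control spot in a noisy block: for Plk2 the control spots were 133, in such a block, and 561, and the second lay above both treated spots (396 and 438). Without spots in noisy blocks the median over the genes with a value or bound went from 0.10 to -0.15. With arrays scaled by the median of their detected probes, which shifted all genes by 0.58, 8 were higher and 0 lower, the median of the genes was 0.68, and Apaf1 stood at -0.53. Counts of 2 and 1 are too small to be set against those shares. Btg2 stood at 2.86 ± 0.31 (7.28-fold), rank 34 of 10171. After Btg2 and Ccng1, Gadd45b was the next of the measured growth-arrest genes, at 0.76 ± 0.29.

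In kidney Btg2 was the only one of 19 genes measured on both arrays that reached 2-fold, at 1.41 ± 0.22 (2.66-fold, rank 149 of 8951), where 1.40% of 8077 such genes were higher and 0.545% lower. The median was -0.17, beside -0.05 for all genes. With 5 bounds the count was 1 higher and 0 lower of 24, beside 3.11% and 1.26% of 8951 genes. The largest other values were bounds: Sesn2 at -0.87, Ei24 at -0.69, Apaf1 at 0.65 and Bbc3 at 0.64.

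Set side by side over the 3 comparisons, Btg2 was higher in all, Ccng1 in FAO cells and liver, and 10 genes in FAO cells alone (Aen, Bbc3, Bcl2l11, Fas, Mcl1, Mdm2, Phlda3, Plk3, Tp53inp1 and Zmat3). Of these 10, Fas, Bcl2l11 and Plk3 had no value in either tissue, and Phlda3 had one in liver but none in kidney. Whether the remaining genes differ in response between cells and tissues was not tested. No gene was past 2-fold in opposite directions. A difference of the same sign was seen in 15 of the 24 genes with a value in both FAO cells and liver. It was seen in 12 of 22 in FAO cells and kidney, and in 10 of 23 in liver and kidney. Signs were taken after rounding, so the 0.00 of Bax in liver and of Polk in kidney counted as no match. These counts and those of shared calls were not made over all genes, so they describe the listed genes only.

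Other cell types moved in the tissues beside these values, and in RNA of a whole organ a change in the number of cells of a type and a change in RNA per cell cannot be told apart. In liver 6 of 7 erythroid markers with a value passed 2-fold upwards, including 1 bound, with summed signals over the 11 listed of 44473 on the control and 148239 on the iron-free array; the globin partner Ahsp was at 2.76 and Rhd at 3.06. In the same pair 8 of 8 cell-cycle markers with a value were higher, 6 of them as bounds, with sums of 565 and 3862; Cdk1 was at 3.36 and the proliferation marker Mki67 at least 7.85-fold higher. Leukocyte markers were higher in 4 of 13 cases (59947 and 66596) and hepatocyte markers in 2 of 10 with 1 lower (987019 and 1245119). Endothelial markers were higher in 2 of 5 cases, Stab2 (2.02-fold) and Lyve1 (2.04-fold), with a lower sum on the iron-free array (13431 and 10973). In kidney 2 of 7 erythroid markers were higher (32979 and 73370), as were the collagens Col1a2 and Col3a1 among 7 stellate cell and fibroblast markers (4217 and 9133). The part of these cells in the values of Btg2, Ccng1 and Apaf1 was not tested.

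In FAO cells, where 2 markers of leukocytes and 1 of erythroid cells were above background on the untreated and 3 of each on the treated array, none of the 10 cell-cycle markers with a value was higher and Ccnb2 was at least 4.67-fold lower (median -0.46, sums 53412 and 47913). Hepatocyte markers had 1 gene higher and 2 lower of 10, with Fgb at 1.11, Ttr at -1.67 and Apob at -1.24.

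On the control arrays the genes differed between cells and tissues about as often as all genes did. Against control liver, untreated FAO cells had 7 of 28 genes at least 2-fold higher and 8 lower, beside 27.7% and 27.8% of all genes. The widest gap was that of Perp, whose signal of 9839 in liver stood against 5.40 in FAO cells, at least 462-fold. Kidney against liver gave 7 of 24 higher and 2 lower, beside 26.6% and 14.8% of all genes, among the first Bcl2 (at least 4.80-fold), Ccng1 (3.84-fold) and Bcl2l1 (2.85-fold). FAO cells against kidney gave 4 of 23 higher and 8 lower, beside 20.2% and 30.2%. Cdkn1a by its brighter probe was 5.59-fold lower in FAO cells than in liver and 4.35-fold lower than in kidney. Its other probe read 1822 in untreated FAO cells, below control liver (4381) but above control kidney (1313).

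**Figure D4:**
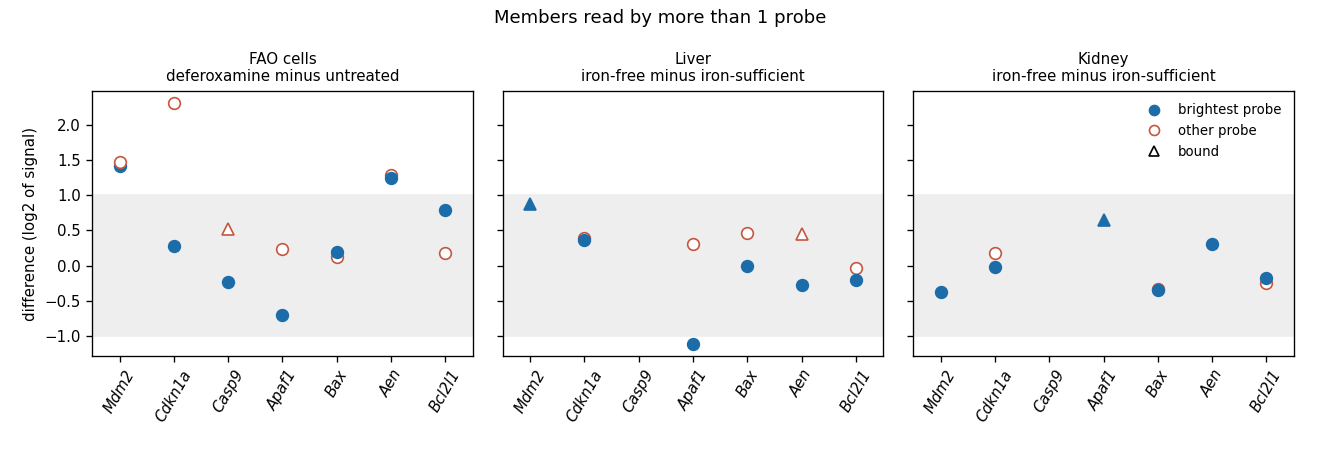
Treated minus control log2 difference (y axis) of the 7 genes for which another probe gave a value (x axis), in FAO cells, liver and kidney; filled symbols are the brightest probe, open symbols the others, and triangles are bounds. Probes of Mdm2 (1.42 and 1.47) and Aen (1.25 and 1.29) lie together in FAO cells, while those of Cdkn1a (0.28 and 2.31) in FAO cells and Apaf1 (-1.11 and 0.31) in liver lie apart.

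Among the genes upstream of these targets, p53 and its regulators gave no value past 2-fold. Of 16 genes of p53 and its regulators with a probe, 14 had a value in FAO cells, 12 in liver and 11 in kidney, and none was higher or lower by that size (medians 0.14, -0.13 and -0.28). The activity of p53 is set mostly at the protein, which these arrays do not measure. Among 19 DNA damage signalling genes with a probe, none of 18 with a value was past 2-fold in FAO cells, and in liver 2 of 11 were, both as bounds, among them the recombination repair gene Brca2 (at least 2.26-fold). None of 7 was in kidney. Of all genes, 4.05% were higher and 6.43% lower in FAO cells, 6.52% and 3.01% in liver, and 3.11% and 1.26% in kidney. Counts from lists this small cannot be set against those shares, here or in the lists that follow.

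Targets of p53 outside the list were mixed. In FAO cells 3 of 17 with a value were higher and 1 lower, among them Dram1, a lysosomal membrane protein of autophagy, at 1.10 ± 1.64, Gdf15, a stress cytokine, at the 2-fold mark with signals of 2178 and 4358, and Steap3, a metalloreductase of the endosome, at -1.17 as a bound. In liver 1 of 14 was higher and 1 lower, Gdf15 at least 6.83-fold and Steap3 at -1.27 ± 0.58, and in kidney none of 13. The medians were 0.04, -0.27 and -0.06, beside 0.03, 0.02 and -0.03 for all genes.

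Other BCL2 family genes were higher in 3 of 6 cases in FAO cells: Bnip3 (2.82-fold) and Bnip3l (2.10-fold), mitochondrial receptors of mitophagy that hypoxia is known to induce, and the BH3-only gene Hrk (2.43-fold). In liver Bok, a pore former, was at 1.83 ± 0.31, 1 of 6, and in kidney none of 6 passed. Death receptor genes outside the list were higher in 2 of 10 cases in FAO cells and 2 of 9 in liver, the same pair in both: Tnfrsf21 (2.16 ± 0.10, and at least 3.01-fold in liver) and Tnfrsf12a (1.37 ± 0.15 and 1.40 ± 0.31), the receptor of TWEAK. None of 9 passed in kidney. Of all genes, 4.05% were higher in FAO cells, 6.52% in liver and 3.11% in kidney. Genes higher in both FAO cells and liver were not counted over all genes, so the shared pair is a description only. Of 19 caspases, their inhibitors and mitochondrial death factors, none of 17, 18 and 15 with a value reached 2-fold in FAO cells, liver and kidney (medians -0.01, -0.11 and -0.02).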

How the data were processed

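The 37 genes and all gene lists were chosen with earlier results of these data known. The arrays (design 028279, grid build rn4) were read by the authors with Agilent Feature Extraction 10.7.3.1, per the file headers. The deposited gProcessedSignal is a background-subtracted intensity on a linear scale. The authors' deposited series table gives a probe intensity and a log2 value. Its intensity equalled the geometric mean of a probe's spots, within a relative tolerance of 0.0001, for 97.1% to 98.3% of probes. Its log2 value was log2 intensity minus 1 constant per array (column medians -3.43 and -3.29 for liver, -3.31 and -3.26 for kidney, -4.13 and -4.17 for FAO cells, control first). Further per-spot flags were used as the authors deposited them.

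Here log2(gProcessedSignal) was averaged over spots without outlier flags (680 to 1215 spots flagged per array), and each array was then set to a common 75th percentile, taken over the 9091 probes that every array read well above background. Gene symbols came from the series table, and 1 probe stood for a gene. A probe was well above background only if all its kept spots were. With 1 array dim, the difference is a bound: the bright signal is set against whichever is higher, the dim signal itself or the weakest signal counted as detected on that array. Spot errors were pooled in 20 signal bins. Noisy blocks are 16 by 16 spots whose repeated spots differ by a median over 0.5 log2. Genes past 2-fold had a difference or bound of at least 2-fold. Values on all 6 arrays are given for each of the genes past 2-fold in any comparison and for Mdm2, Cdkn1a, Bax, Bcl2 and Mcl1, and of other lists at most the 3 largest differences past 2-fold are named. Single values of some genes of those lists are not reported here. Array number limits the precision. Alternatives covered scaling, background correction by normexp (limma 3.58.1, R 4.3.3, offset 50, on median signals since mean signals were not used here), noisy blocks, outlier spots, dim probes, probe choice and threshold. Python 3.11.15, numpy 2.4.6 and pandas 2.3.3 were used. The scaling and difference steps were tested on simulated probe values, all taken as above background. Spot averaging, noisy blocks and bounds were not part of that test. Where a gene had several RefSeq promoter rows, the first was used.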

Additional observations from a re-analysis of the deposited data

Results flagged for a closer look

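The values that stood out lay in probes that the comparisons did not use, each in FAO cells and each past 2-fold. The other probe of Cdkn1a gave 2.31, against 0.28 by the brighter one, and it is read by 1 spot per array. The other probe of Mdm2 gave 1.47 and that of Aen 1.29, both near the value of the probe used. No sample could be set against others of its group, since each group is 1 array.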

How the results depend on the processing

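Over 87 recomputed counts and medians, 75 stayed near the reported value, and 12 moved. Of 345 recomputed values of single genes 31 moved, and none of those past 2-fold changed sign. Signs did turn in 10 values within 2-fold, among them Mdm2 (-0.23) and Mcl1 (-0.14) in liver without noisy blocks, and in 3 medians: liver -0.15 without noisy blocks, kidney 0.11 with the median scaling and 0.07 with normexp. In FAO cells the number at least 2-fold higher ran from 8 (normexp) to 13, and 7 of the 12 genes kept the call under all 9 settings at that threshold (Aen, Bbc3, Btg2, Ccng1, Mdm2, Plk3 and Tp53inp1). Normexp took Zmat3 (0.95), Phlda3 (0.84), Fas (0.99), Bcl2l11 (0.89) and Mcl1 (0.78) below it. The number lower in FAO cells was 1 with no filter on dim probes. In liver, scaling by the median of each array's detected probes, which moved all genes by 0.58, gave 8 higher, 0 lower and a median of 0.68; the number lower was also 0 with normexp and with a gene's probes averaged. Apaf1 then stood at -0.53, -0.60 and -0.40. In kidney 3 were lower with no filter. A 1.5-fold threshold gave 16 higher and 2 lower in FAO cells, 7 higher and 2 lower in liver, and 3 higher and 2 lower in kidney. Btg2 in all comparisons and Ccng1 in liver kept their calls under all 9 settings. Some settings could not move such genes, so a call kept under all 9 says less than that number. Those on dim probes leave a gene above background on both arrays unchanged, and averaging leaves a gene with 1 probe unchanged. Keeping outlier spots left the FAO values of the 7 genes as they were. The cause of the shifts named above was not tested. Over all genes, the higher share of FAO calls was 38.6%, and 50.3% without noisy blocks, with lower calls going from 688 to 415. For liver it was 68.4%, with 96.5% under that median scaling, 55.8% with both arrays above background and 44.8% with no filter. For kidney it was 71.1%, then 83.6% under the median scaling and 54.6% with no filter. No paired analysis was possible because each group is 1 array, and for the same reason no array could be left out. Signal over background limits the dim genes, of which Bik and Pmaip1 could not be read.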
